A study of Mus musculus with 6 samples.

Results

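The S100 genes encode small calcium-binding proteins, and the 10 described here, S100a3, S100a4, S100a6, S100a7a, S100a8, S100a9, S100a10, S100a11, S100a14 and S100a16, were chosen by gene symbol. Each symbol matched 1 row of the expression table, so that 10 of the 21154 genes tested belong to the set. The tissue was subcutaneous tumours of KLN205, a mouse squamous cell carcinoma line, each grown from 1000000 cells injected into the left flank in 50 µL of RPMI-1640 medium and 100 µL of Matrigel, a basement membrane gel. In 3 tumours the mice had received an antibody against PD-1, an inhibitory receptor of T cells, at 250 µg into the peritoneum with an interval of 3 days (anti-PD-1 replicates 1, 2 and 3). The 3 reference tumours had no anti-PD-1 antibody (control replicates 2, 3 and 4). The treatment protocol names an IgG2a isotype antibody where the sample labels say only that these tumours were untreated with anti-PD-1. The dose of 250 µg and the interval of 3 days are recorded for the control samples too. The labels state neither strain, sex nor age of the mice. The series text speaks of surviving cells while the labels name tumour tissue, so host cells are taken to be part of each sample.

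S100 proteins form dimers and bind calcium through EF-hand motifs, which opens a face for partner proteins. S100A8 and S100A9 join as calprotectin, which withholds zinc and manganese from microbes, signals to TLR4 and RAGE (Ager) when released, and is abundant in neutrophils and monocytes and inducible in stressed or inflamed squamous epithelium. Most S100 genes lie together with the epidermal differentiation genes in 1 region of the genome, and many are read in keratinocytes.

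The array gives 1 log2 signal per transcript cluster, so a difference of 1 is a 2-fold change, and signals of different genes cannot be ranked against each other. Control replicate 3 differed most from the rest. Across genes its Pearson correlation with them lay between 0.907 and 0.936, while the other 5 arrays correlated between 0.973 and 0.987 with each other. It held the highest summed signal of 9 adipocyte markers (19.31 in log2, against 10.94 to 15.40 in the other 5 arrays) and the lowest of 14 basal squamous markers (15.71, against 16.88 to 19.76). The basal keratin Krt14 was read in all 6 tumours, at 16.55, 17.42 and 16.67 in anti-PD-1 and 15.54, 9.90 and 13.41 in control replicates 2, 3 and 4. Since 1 array can carry a group mean of 3, differences are given with and without control replicate 3. The labels do not say that each tumour came from its own animal, so the p-values cover the spread among these 6 samples, which may be technical.

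All members lie on chromosome 3 (mm10), 8 of them from 90526849 to 90695721 and the other 2, S100a11 and S100a10, from 93520488 to 93564645. S100a8 (90669071 to 90670034) is read from the plus strand and S100a9 (90692630 to 90695721) from the minus strand, with 22.6 kb between them. The start regions of this pair are shown because both genes were higher in anti-PD-1 tumours and followed each other closely across arrays. The sequences are RefSeq's for GRCm38.p6, holding the 250 bases before the annotated start and the 50 bases from it on, on the strand of the gene: chr3:90668821-90669120 (plus) for S100a8 and chr3:90695672-90695971 (minus) for S100a9. Capitals mark the letters TATAAA and, in S100a9, a match to the C/EBP core TTGCNNAA.
S100a8: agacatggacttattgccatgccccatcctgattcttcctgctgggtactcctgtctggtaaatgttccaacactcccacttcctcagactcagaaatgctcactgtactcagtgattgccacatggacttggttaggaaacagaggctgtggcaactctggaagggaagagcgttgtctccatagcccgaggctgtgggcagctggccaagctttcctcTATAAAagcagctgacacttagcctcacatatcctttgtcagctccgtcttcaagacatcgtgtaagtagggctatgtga
S100a9: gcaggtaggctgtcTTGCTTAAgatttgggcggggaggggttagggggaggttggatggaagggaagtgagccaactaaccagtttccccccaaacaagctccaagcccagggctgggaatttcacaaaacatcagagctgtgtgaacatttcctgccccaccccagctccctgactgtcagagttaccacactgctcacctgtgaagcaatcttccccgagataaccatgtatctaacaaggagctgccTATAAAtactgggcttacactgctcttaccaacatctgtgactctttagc
In S100a8 the letters TATAAA begin 30 bases before the annotated start, and in S100a9 they begin at the annotated start base itself. Among 32851 RefSeq start regions of 300 bases, 13.6% hold TATAAA on either strand and 10.8% hold TTGCNNAA. Start regions were at hand for 8 of the 10 members, in 12 windows, since some genes have several starts. TATAAA also stands in 1 window of S100a3 and in that of S100a4. The AP-1 letters TGANTCA (7.81% of all regions) occur in a window of S100a16 and at 2 places in that of S100a11, the STAT letters TTCNNNGAA (8.30%) in that of S100a7a, and an NF-kB match (8.46%) in none of the 12. These letters are descriptions of the windows and show no binding.

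No member passed the test over all genes, which was limma with Benjamini-Hochberg adjustment and a threshold of 0.05. This threshold was passed by 1 of 21154 genes (0.00473%). At an unadjusted p under 0.05, 4 members were higher in anti-PD-1 tumours and 0 were lower, namely S100a3, S100a8, S100a9 and S100a10. Of all genes 9.7% passed this p, 5.18% higher and 4.52% lower. Of these members S100a8 and S100a9 were higher by at least 2-fold, and 2.15% of all genes met both conditions. Without control replicate 3, 5 members were higher at this p (the 4 and S100a14), beside 4.05% of all genes, and 8.61% in either direction. The 3 anti-PD-1 values lay above the 3 control values in 5 members, those 4 and S100a14, as they did in 8.82% of all genes, and lay below them in 0 members and 7.76% of all genes. A higher mean in anti-PD-1 tumours was found for 9 of 10 members and 52% of all genes. The median log2 difference of the members was 1.02 (0.89 without control replicate 3), against 0.02 over all genes. In group means, epithelial markers differed in the direction of most members and by more. Of the basal squamous markers 13 of 14 had a higher mean after anti-PD-1, with a median of 2.81 (1.81 without control replicate 3). The mean was also higher for 14 of 14 cornified epithelium markers, with a median of 2.29 (1.42 without it). Tumour by tumour, the markers did not follow every member. Both lists scored highest in anti-PD-1 replicate 2, at 2.23 and 2.36 (each gene centred on its mean over 6 arrays, then the median gene). That tumour was the lowest of its group for S100a4, S100a6, S100a8, S100a9, S100a10 and S100a11. It was the highest of its group for S100a7a, S100a14 and S100a16. The part of epithelial cells in the members' differences was not tested. The members were picked with earlier results of these tumours known, so these counts describe the set and do not test it. In RNA from whole tumours, more cells of a type and more RNA per cell cannot be told apart.

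**Figure D1:**
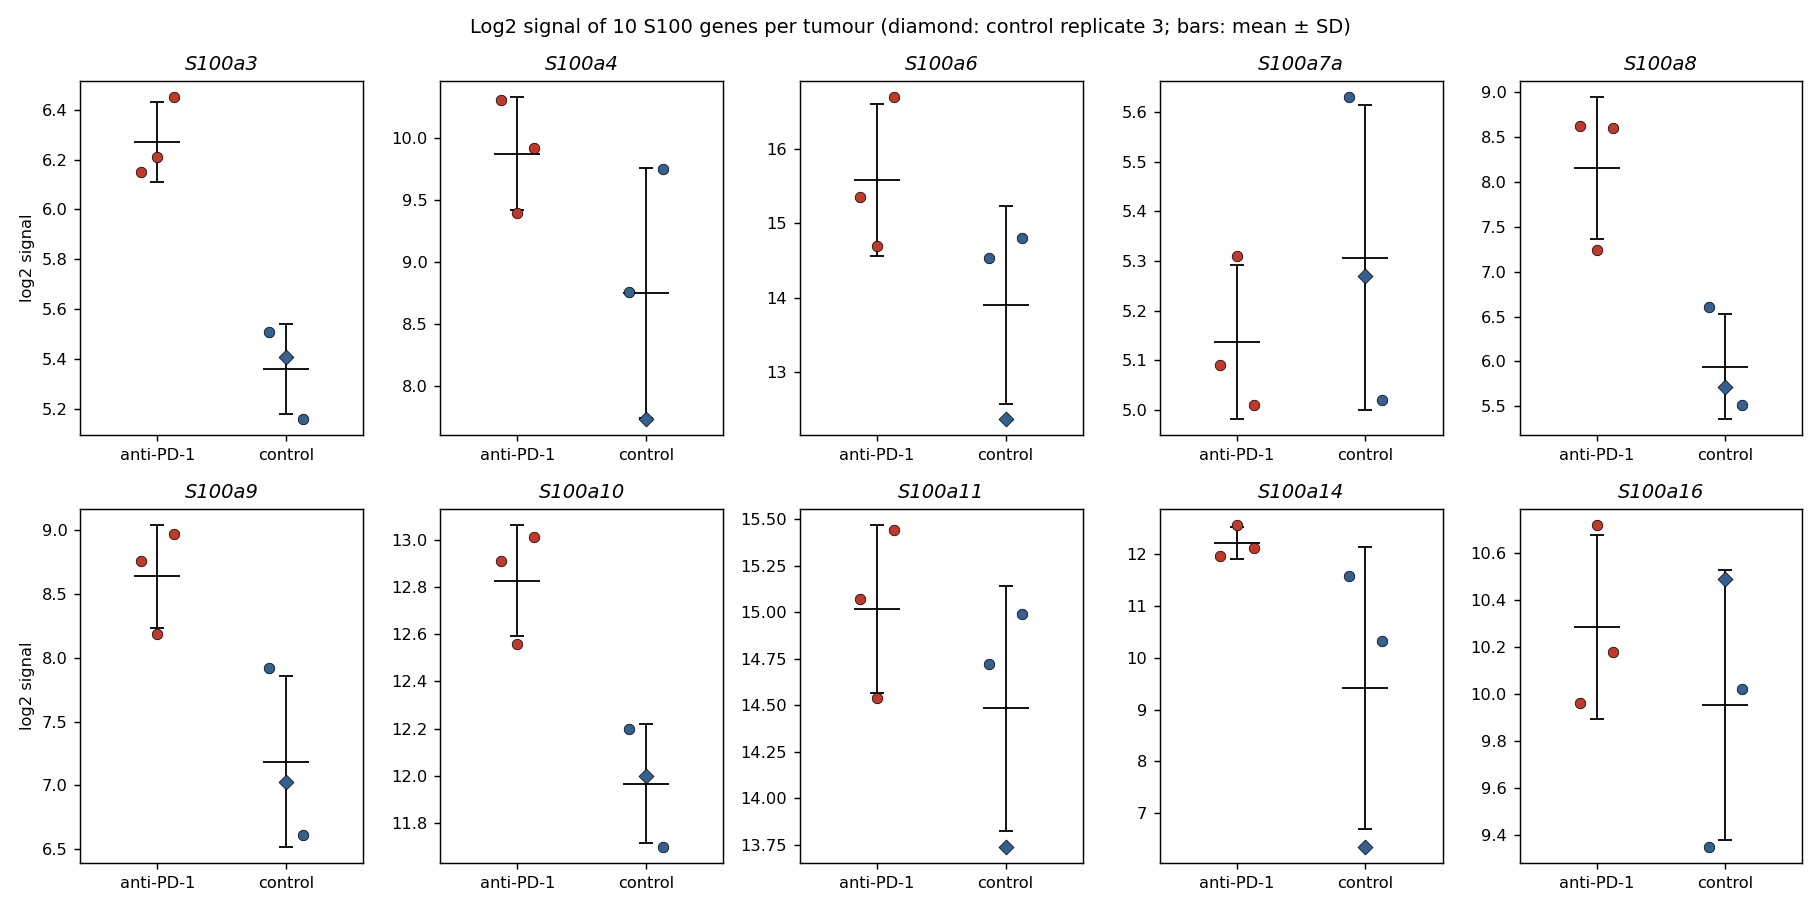
Log2 signal of the 10 S100 genes (y axis, a scale of its own per gene) in 3 anti-PD-1 and 3 control tumours, 1 point per tumour, with the mean and SD. The groups do not overlap for S100a3, S100a8, S100a9, S100a10 and S100a14, and control replicate 3 (diamond) is the lowest tumour for S100a4, S100a6, S100a11 and S100a14.

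S100a8, the smaller calprotectin subunit, read 8.62, 7.24 and 8.60 in anti-PD-1 replicates 1, 2 and 3, against 6.61, 5.71 and 5.51 in control replicates 2, 3 and 4. All anti-PD-1 tumours lay above all controls, and the nearest values, anti-PD-1 replicate 2 and control replicate 2, were 7.24 and 6.61. The log2 difference was 2.21 ± 0.47 (SE), a 4.63-fold change, with a 95% interval from 1.09 to 3.33, an unadjusted p of 0.00239 and a limma adjusted p of 0.506. It was 2.09 without control replicate 3 and between 1.98 and 2.67 with any 1 array left out, and the unadjusted limma p stayed between 0.000623 and 0.0118 in these 6 fits. Of the 21154 genes 166 had a larger upward difference. The authors' deposited table gives a fold of 7.92 for S100a8, from averages of 8.61 in anti-PD-1 and 5.63 in control, where the arithmetic means are 8.15 and 5.94. How those averages were formed is not stated in the labels.

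S100a9, the partner subunit of calprotectin, read 8.76, 8.19 and 8.97 in anti-PD-1 and 7.92, 7.03 and 6.61 in control tumours. The order of the tumours within each group was nearly that of S100a8, with anti-PD-1 replicate 2 lowest and control replicate 2 highest of their groups. The difference was 1.45 ± 0.39 (SE), or 2.74-fold, with an unadjusted p of 0.00767 and a limma adjusted p of 0.506. It ran from 1.165 to 1.82 with 1 array left out. Over the 6 arrays the Pearson correlation of S100a9 with S100a8 was 0.973, and 0.966 without control replicate 3. This value includes the difference between the groups and is given as a description.

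S100a10 is the binding partner of annexin A2 at the cell membrane and is held in a permanently active form. It read 12.91, 12.56 and 13.01 in anti-PD-1, against 12.20, 12.00 and 11.70 in control tumours. The spread within both groups was small, at 0.24 in anti-PD-1 and 0.25 in control (SD), below the median SD of 0.27 and 0.36 over all genes. The difference was 0.86 ± 0.23 (SE), or 1.82-fold, with an unadjusted p of 0.00839 and a limma adjusted p of 0.506, and between 0.73 and 0.99 with 1 array left out. The gene lies about 2886 kb from S100a8, and the signals of both correlated at 0.984 over the 6 arrays (0.990 without control replicate 3). This value includes the difference between the groups, which did not overlap in either gene.

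S100a3, known mainly from the hair cuticle, read 6.15, 6.21 and 6.45 in anti-PD-1 and 5.51, 5.41 and 5.16 in control tumours. Its groups did not overlap. All 6 signals lay below the array medians of 7.04 to 7.13 over all transcript clusters, and the authors' calls list the gene as expressed in both groups. The difference of 0.91 ± 0.21 (SE), or 1.88-fold, had an unadjusted p of 0.00341 and a limma adjusted p of 0.506, and it ran from 0.81 to 0.985 with 1 array left out. Of the 14 hair follicle markers measured, 11 had a higher and 3 a lower mean after anti-PD-1, with a median of 0.42, and the authors' calls list 6 of them as expressed in neither group. Their summed log2 signal ran from 8.88 to 10.66 in anti-PD-1 and from 8.39 to 8.84 in control tumours, and its part in the S100a3 difference was not tested. The highest sum was that of anti-PD-1 replicate 2, in which S100a3 was not the highest.

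S100a14, an epithelial member, had the largest difference of the 10 and the largest error. It read 11.97, 12.57 and 12.12 in anti-PD-1, against 11.58, 6.35 and 10.32 in control replicates 2, 3 and 4. Most of the difference of 2.80 ± 1.23 (SE) came from control replicate 3, and the control SD of 2.73 was exceeded by only 206 of 21154 genes. The unadjusted p was 0.0576 and the limma adjusted p 0.522. Without control replicate 3 the difference was 1.27, with an unadjusted p of 0.0149 and an adjusted p of 0.540, and without control replicate 2 it was 3.885. The low array is also the one lowest in basal squamous markers, whose score (each gene centred on its own mean over the 6 arrays, then the median gene) was 1.11, 2.23 and 0.76 in anti-PD-1 and 0.56, -4.03 and -1.13 in control replicates 2, 3 and 4. The order of all 6 tumours was nearly that of S100a14, and the part of these cells in the difference was not tested.

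S100a6 (calcyclin), S100a4 and S100a11 form a second pattern, with overlapping groups and control replicate 3 lowest. S100a6 is read in many proliferating and epithelial cells, S100a4 in motile mesenchymal and immune cells, where it binds non-muscle myosin, and S100a11 in keratinocytes, where it binds annexin A1. S100a6 read 15.35, 14.69 and 16.69 in anti-PD-1 and 14.53, 12.37 and 14.80 in control tumours. Its lowest anti-PD-1 value, 14.69, lay below the highest control value, 14.80. The difference was 1.68 ± 0.76 (SE), with an unadjusted p of 0.0651 and a limma adjusted p of 0.523. Leaving out control replicate 3 gave 0.91, and leaving out anti-PD-1 replicate 3, the tumour with the highest signal, gave 1.12.

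S100a4 read 10.31, 9.40 and 9.92 in anti-PD-1 and 8.76, 7.73 and 9.75 in control tumours. Control replicate 4 lay among the anti-PD-1 values, and the difference of 1.13 ± 0.52 (SE) had an unadjusted p of 0.0682 and a limma adjusted p of 0.524. It was 0.62 without control replicate 3 and 1.63 without control replicate 4. Fibroblast markers are given beside S100a4, since fibroblasts express it: 7 of 8 had a lower mean after anti-PD-1, with a median difference of -1.10, and their summed log2 signal was 17.17 to 18.04 in anti-PD-1 and 18.06 to 19.44 in control tumours. Of the macrophage markers 8 of 10 were lower, with a median of -0.71 and a summed signal of 15.76 to 16.94 in anti-PD-1 and 16.38 to 17.49 in control tumours.

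S100a11 read 15.07, 14.54 and 15.44 in anti-PD-1 and 14.72, 13.74 and 14.99 in control tumours. The groups overlapped, and the difference of 0.53 ± 0.40 (SE) had an unadjusted p of 0.221 and a limma adjusted p of 0.626. It was 0.16 without control replicate 3. S100a11 and S100a6 ran in parallel, with a correlation over the 6 arrays of 0.969, and of 0.899 without control replicate 3. S100a4 correlated with S100a6 at 0.866 and with S100a11 at 0.895, falling to 0.575 and 0.647 without control replicate 3. S100a11 correlated with S100a8 at 0.637 and with S100a10, its neighbour on the chromosome, at 0.523 (0.492 and 0.419 without control replicate 3). All these values include the difference between the groups.

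S100a16 and S100a7a showed no difference beyond the spread of the tumours. S100a16, a broadly read member, was 9.96, 10.72 and 10.18 in anti-PD-1 and 9.35, 10.49 and 10.02 in control tumours. The difference of 0.33 had a 95% interval from -0.51 to 1.18 and a limma adjusted p of 0.732, and it ran from 0.03 to 0.60 with 1 array left out. It is the only member for which control replicate 3 was the highest control. S100a7a, a relative of human psoriasin and a chemoattractant of inflamed skin, read 5.09, 5.31 and 5.01 in anti-PD-1 and 5.63, 5.27 and 5.02 in control tumours. It differed by -0.17, with a 95% interval from -0.73 to 0.39 and a limma adjusted p of 0.798, and was the only member with a lower mean in anti-PD-1 tumours.

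The other S100 genes on the array differed in both directions. Of 8 measured, 3 had a higher and 5 a lower mean after anti-PD-1, the median being -0.16, and 0 passed at an unadjusted limma p under 0.05. They are S100a1, S100a2, S100a5, S100a7l2 (named 9130204L05Rik on the array), S100a13, S100b, S100g and S100z. The largest difference was that of S100a1, a muscle and heart member, at 3.81, 3.92 and 4.01 in anti-PD-1 and 4.37, 5.89 and 3.95 in control tumours. Its -0.82 came from control replicate 3 and was -0.25 without it. The neural member S100b differed by -0.25 and S100a2, a squamous member in human tissue, by -0.29, with 95% intervals of -0.78 to 0.28 and -1.01 to 0.42. S100a5, called expressed in neither group, differed by -0.31. S100a13, S100a7l2, S100g and S100z differed by -0.08, 0.15, 0.02 and 0.01, and the sign of each turned in at least 1 alternative fit.

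**Figure D2:**
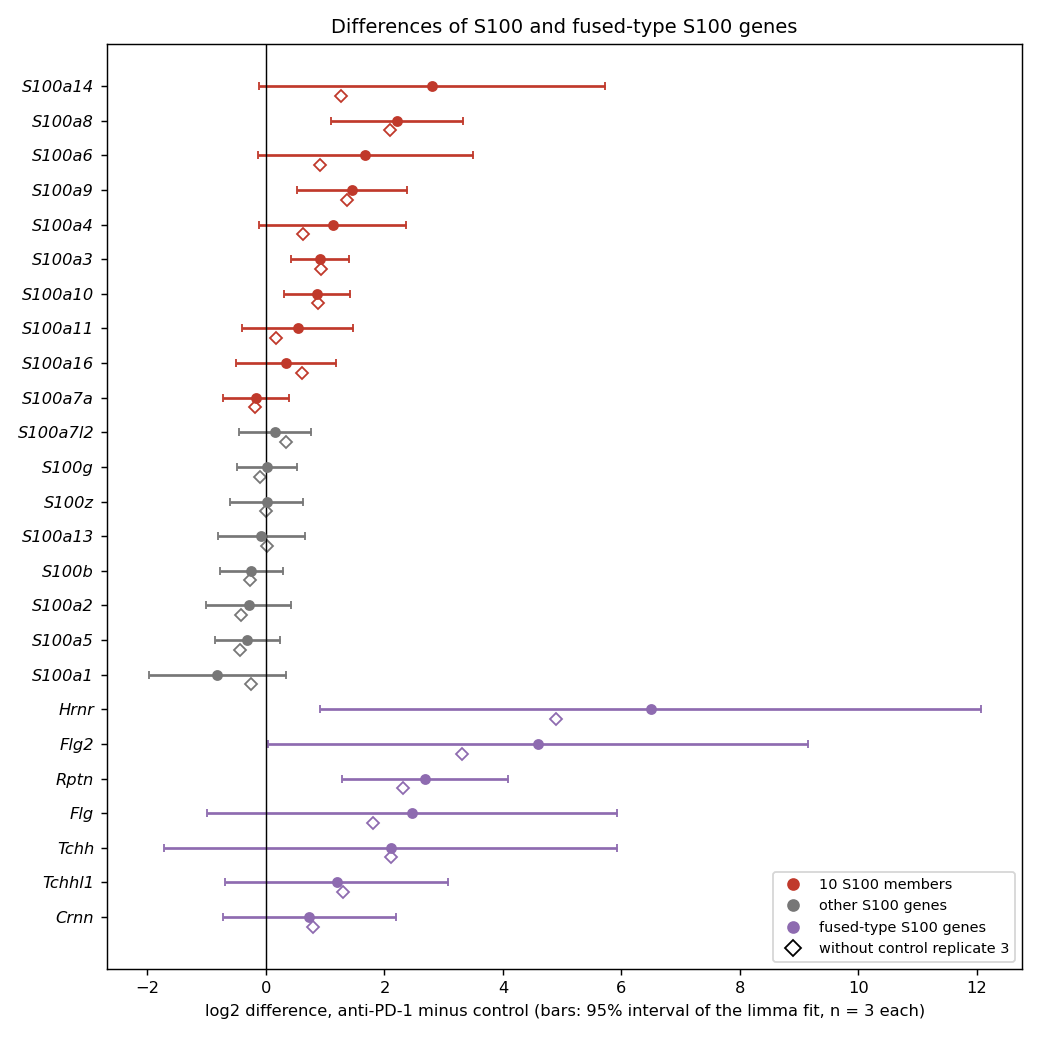
Log2 difference, anti-PD-1 minus control (x axis), of the 10 members, 8 other S100 genes and 7 fused-type S100 genes, with the 95% interval of the limma fit (n = 3 each) and, as diamonds, the difference without control replicate 3. The intervals of S100a3, S100a8, S100a9 and S100a10 lie above 0, and the S100a14 difference is 2.80 with and 1.27 without control replicate 3.

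Neighbouring genes did not share 1 value. S100a5 lies between S100a4 and S100a6 and differed by -0.31 beside 1.13 and 1.68, and S100a7a, whose start lies 14.8 kb before that of S100a8, by -0.17 beside 2.21. S100a2 differed by -0.29 beside 0.91 for S100a3. Over the whole span of the members, which includes the epidermal differentiation genes, 28 of 68 genes tested (41.2%) were higher in anti-PD-1 tumours at an unadjusted p under 0.05, against 5.18% of all genes. These 68 include the 10 members, and the count was not made without control replicate 3.

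**Figure D3:**
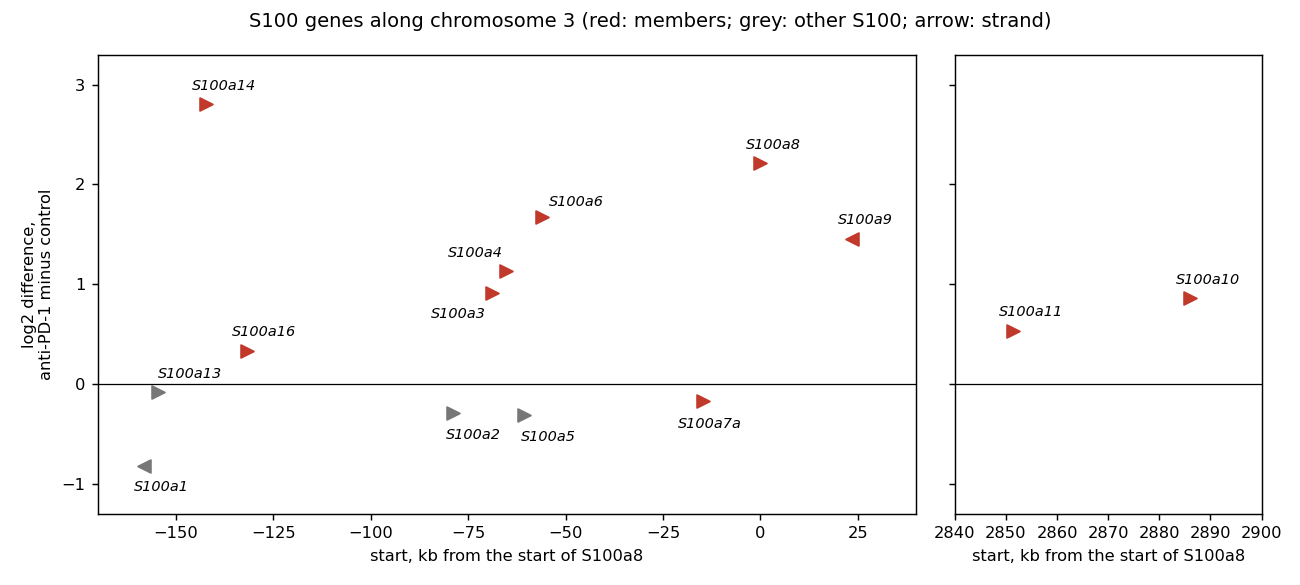
Log2 difference, anti-PD-1 minus control (y axis), of S100 genes by the distance of their start from that of S100a8 in kb (x axis, broken into 2 panels; triangles point along the strand). S100a14 at 2.80, S100a8 at 2.21 and S100a6 at 1.68 stand above the grey neighbours S100a1 at -0.82, S100a5 at -0.31, S100a2 at -0.29 and S100a13 at -0.08. S100a5 is called expressed in neither group, and S100a2 read 4.16 to 5.29.

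The fused-type S100 genes encode long proteins of cornifying skin with an S100-like start, and lie between both groups of members. Each of the 7 on the array had the higher mean after anti-PD-1, the median being 2.46 (2.12 without control replicate 3), 3 of them at an unadjusted limma p under 0.05, against 5.18% of all genes, and none past the adjusted threshold. Without control replicate 3 only Rptn passed the unadjusted p, while Hrnr had a limma p of 0.058 and Flg2 one of 0.105. Rptn (repetin) read 8.52, 9.44 and 9.53 in anti-PD-1 and 5.90, 5.75 and 7.79 in control tumours, a difference of 2.68 ± 0.59 (SE) without overlap and with a limma adjusted p of 0.506. Hrnr (hornerin), not called expressed in the control group, read 11.52, 14.39 and 11.85 in anti-PD-1 and 3.46, 2.92 and 11.91 in control replicates 2, 3 and 4. Flg2 (filaggrin 2) had 11.26, 12.72 and 9.37 in anti-PD-1 and 4.54, 3.95 and 11.09 in control tumours, and Flg (filaggrin) 12.78, 15.09 and 14.25 in anti-PD-1 and 9.41, 10.27 and 15.06 in control tumours. In these 3 genes control replicate 4 lay within the range of the anti-PD-1 tumours, whereas it was the lowest of all tumours for S100a8, S100a9, S100a10 and S100a3. Tchh, Tchhl1 and Crnn (trichohyalin, its relative and cornulin) were high in anti-PD-1 replicate 2 alone, where Tchh read 10.72, against 4.09 to 4.95 in the other 5 tumours.

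Neutrophils are the richest source of S100a8 and S100a9 among blood cells, so their markers are given beside the pair. The mature neutrophil marker Ly6g read 5.09, 4.49 and 4.90 in anti-PD-1 and 4.51, 4.55 and 4.94 in control tumours and is not called expressed in the control group. The granule gene Camp is called expressed in neither group. Retnlg, a neutrophil gene, was lower in anti-PD-1 tumours, at 9.12, 6.29 and 6.61 against 10.45, 8.35 and 9.65 in control, a difference of -2.14 with an unadjusted p of 0.0406 and a limma adjusted p of 0.508. Ltf, chosen after its values were seen, read 4.90, 5.08 and 4.88 in anti-PD-1 and 5.27, 7.85 and 6.28 in control tumours. It was the only neutrophil marker with all anti-PD-1 values below all control values. Its difference was -1.51 with a limma adjusted p of 0.508. Mmp9, Il1r2 and Cxcr2 were higher. Mmp9, a gelatinase that other cells also express, read 11.80, 9.97 and 12.44 in anti-PD-1 and 10.82, 8.20 and 8.72 in control tumours, a difference of 2.16 with an unadjusted p of 0.0405 and a limma adjusted p of 0.508. Il1r2, a decoy receptor of interleukin 1, read 8.53, 8.63 and 9.16 in anti-PD-1 and 8.38, 6.54 and 7.71 in control tumours, without overlap, a difference of 1.23 with an unadjusted p of 0.0364 and a limma adjusted p of 0.508. Cxcr2, the chemokine receptor of neutrophils, was chosen after its values were seen and read 7.04, 9.32 and 6.81 in anti-PD-1 and 6.37, 5.16 and 6.73 in control tumours, also without overlap, a difference of 1.64 with a limma adjusted p of 0.522. Without control replicate 3 the Il1r2 difference was 0.73 and that of Mmp9 1.63, and without anti-PD-1 replicate 2, its highest tumour, Cxcr2 differed by 0.84. In all, 9 of 14 neutrophil markers had a higher and 5 a lower mean after anti-PD-1, with a median of 0.24 (0.11 without control replicate 3). At an unadjusted p under 0.05, 2 were higher and 2 lower, beside 5.18% and 4.52% of all genes, and 0 were higher and 2 lower without control replicate 3. Their summed log2 signal ran from 11.46 to 12.75 in anti-PD-1 and from 10.40 to 12.09 in control tumours. The largest term of this sum was Mmp9 in anti-PD-1 tumours and in control replicate 2, and Retnlg in control replicates 3 and 4. This says which marker weighs most in the sum and does not rank the RNA of the genes. The part of neutrophils in the S100a8 and S100a9 difference was not tested.

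A list of interleukin 17 cytokines and receptors with antimicrobial and inflammatory epithelial genes differed in both directions. Of 17 measured 11 had a higher and 6 a lower mean after anti-PD-1, the median being 0.43, and -0.03 without control replicate 3. At an unadjusted p under 0.05, 3 were higher and 1 lower, beside 5.18% and 4.52% of all genes. The authors' calls list 2 of the 17 as expressed in neither group. Il36g (Il1f9 on the array), a keratinocyte cytokine, read 8.01, 9.42 and 8.06 in anti-PD-1 and 6.33, 4.55 and 7.25 in control tumours, a difference of 2.45 with an unadjusted p of 0.0122. The neutrophil chemokine Cxcl5 read 6.74, 7.62 and 5.63 in anti-PD-1 and 4.40, 3.61 and 5.15 in control tumours, a difference of 2.28 with an unadjusted p of 0.00632. Defb14, a beta-defensin not called expressed in control, read 6.45, 5.50 and 6.08 in anti-PD-1 and 5.22, 5.35 and 5.29 in control tumours. Lcn2, which encodes the iron-withholding lipocalin 2, went the other way, with 10.10, 11.03 and 11.70 in anti-PD-1 and 11.55, 12.78 and 14.70 in control tumours, a difference of -2.07 with an unadjusted p of 0.0385. Leaving out control replicate 4, the highest tumour, gave -1.22 with an unadjusted limma p of 0.0824, and p stayed under 0.05 in 3 of the 6 fits with 1 array left out. Ccl20 differed by 0.43 without overlap. No gene of this list passed the adjusted threshold by limma.

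**Figure D4:**
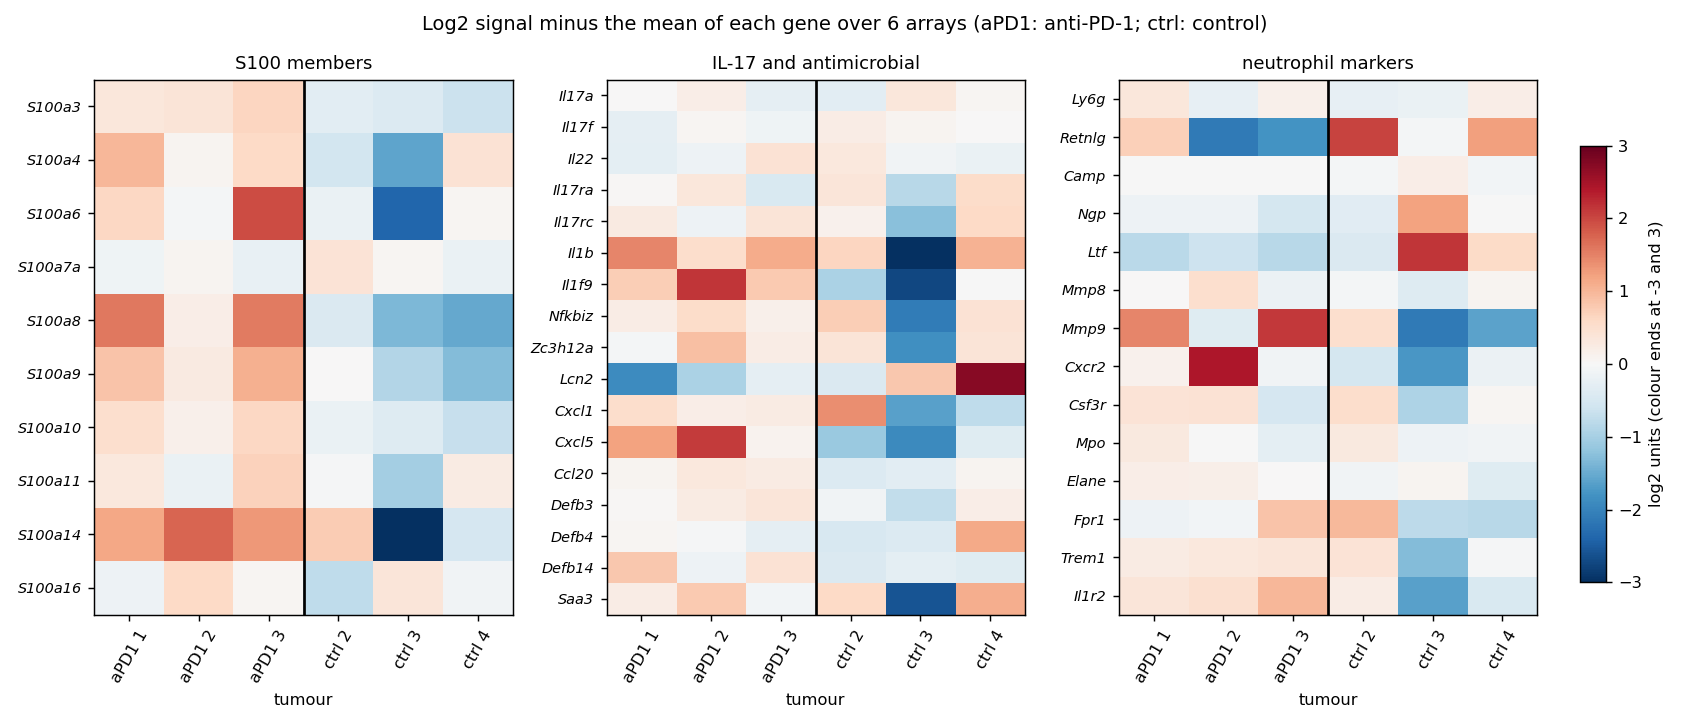
Log2 signal centred on each gene's mean of 6 arrays (colour) for the 10 members, 17 IL-17 and antimicrobial epithelial genes and 14 neutrophil markers (rows) in 3 anti-PD-1 tumours and 3 control tumours (columns). S100a8 is above its mean in the 3 anti-PD-1 tumours and below it in the 3 controls, while Lcn2 and Retnlg have their lowest value in an anti-PD-1 tumour.

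The genes of S100 receptors differed in both directions. Of 8, 5 had a higher and 3 a lower mean after anti-PD-1, with a median of 0.14 (0.02 without control replicate 3) and 0 at an unadjusted limma p under 0.05. Ager, which encodes RAGE, read 5.32, 5.64 and 5.79 in anti-PD-1 and 4.55, 5.34 and 5.28 in control tumours, a difference of 0.53 with a 95% interval from -0.15 to 1.20. Tlr4 differed by -0.57, its cofactors Ly96 and Cd14 by 0.39 and 0.01, and Bsg (basigin, a receptor of S100A9) by 0.49 without overlap between the groups. Mcam and Emb, further S100 receptors, differed by 0.27 and -0.16. Cd36, which also serves fat uptake, read 15.46 in control replicate 3 and differed by -3.15, or by -1.33 without that array.

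Among binding partners 9 of 12 measured had a higher mean after anti-PD-1, with a median of 0.44 (0.27 without control replicate 3) and 0 at an unadjusted limma p under 0.05. Anxa2, the partner of S100a10, read 15.56, 15.38 and 15.24 in anti-PD-1 and 14.98, 12.93 and 15.06 in control tumours, 1.07 higher without overlap and with a limma adjusted p of 0.548. Without control replicate 3 its difference was 0.37. It lies outside the 5 partners with the smallest p and was chosen after its values were seen, because its product forms a complex with S100A10. Plau, the urokinase that turns plasminogen into plasmin, differed by 1.65 and by 0.64 without control replicate 3. Anxa11 and Cacybp, both partners of S100A6, differed by 0.54 and 0.49, Plg (plasminogen) by 0.40 and Myl9, a myosin light chain, by -1.18. The last was -0.56 without control replicate 3, in which it was highest.

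The genes most like a member in pattern were looked for among the 10506 genes that vary by at least 1 log2 unit over the 6 arrays. For S100a8 they were Ifitm1, Cenpv, Eif3e, Gm6988 and Gm5428, with Pearson correlations of 0.984 to 0.994 over 6 arrays and 0.980 to 0.999 without control replicate 3. For S100a14 they were Kpna3, C77080, Lad1, Anln and Racgap1, at 0.997 to 0.999 with all arrays and 0.975 to 0.998 without control replicate 3. For S100a4 they were Ccdc12, Rhox10, Mcu, Rpgr and Nt5dc2, at 0.980 to 0.985 and, without that array, 0.938 to 0.967. Each is the best of many genes over 6 points that share their arrays, so the values describe likeness only.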

How the data were processed

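RNA of 6 tumours was hybridised to Clariom S arrays from 250 ng of total RNA, 1 array per tumour. The deposited log2 signals were made by the authors with Transcriptome Analysis Console (version not given), by SST-RMA per the file headers, and no further normalization was applied. The authors' deposited p-values and FDR values, their fold changes (control over anti-PD-1, turned here), their group averages and their standard deviations, entered as a score, came from the same tool and are used only where named. The 2 deposited tables held the same signals. Of 22206 transcript clusters, 836 with several names and 3 without a name were left out, and 132 genes with more than 1 cluster kept the one with the highest mean, which left 21154 genes. Differences are anti-PD-1 minus control from limma 3.58.1 (lmFit and eBayes, R 4.3.3), two-sided, adjusted after Benjamini and Hochberg over every gene tested, with 95% intervals. The script was tested on simulated data with 200 changed genes. With 3 arrays per group, the number of arrays limits the precision.

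The 10 members and the gene lists were chosen with earlier results of these data known. All members are named. Of the other S100, fused-type, receptor, partner and interleukin 17 lists, those of up to 9 genes may be named whole and longer ones by their 5 smallest p, and of marker lists the defining and brightest genes. Anxa2, Cxcr2 and Ltf are exceptions. Lists are described by counts and medians and were not tested. Replicate numbers 2 and 3 occur in both groups. The labels do not say that a number marks a shared animal, batch or day, so the numbers were not taken as pairs. Deviations of same-numbered arrays from their group means correlated at -0.196 and -0.191. With so few arrays these values cannot exclude a shared batch or day. Alternatives were quantile normalization, median centring, averaging a gene's clusters, a filter on expressed genes, a trended robust fit, array weights, a replicate block, the authors' statistics and leaving out each array.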

Additional observations from a re-analysis of the deposited data

How the results depend on the processing

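Alternative fits covered 59 named genes, without Ltf and the genes of like pattern. Of 824 alternative values, 798 kept their direction and their side of the adjusted threshold. The other 26 turned sign, none of them among the 140 values of the 10 members. None of the 59 passed the adjusted threshold in any fit, so keeping their side means only staying short of it. Some alternatives, such as the trended robust fit, leave the difference as it is, so no sign could turn there. The cause of the changes was not tested. The number of genes past the adjusted threshold was 1, and 0 under quantile normalization, median centring and the replicate block, and between 0 and 4 with 1 array left out (4 without control replicate 3). The count at an unadjusted p under 0.05 and at least 2-fold, 910 genes, ran from 567 to 1928 with 1 array left out. Members at an unadjusted p under 0.05 numbered 4, and 0 with the replicate block, where S100a8 differed by 1.76. With that block 696 of all genes passed this p, against 2051. Numbers 1 and 4 occur in only 1 group each, so anti-PD-1 replicate 1 and control replicate 4 did not enter the block difference. This fit thus differs from the main one in using fewer arrays as well as in pairing. The part of each in the lower counts was not tested. Members without overlap numbered 5, beside 16.6% of all genes, and 5 to 8 with 1 array left out, where fewer arrays raise the share of all genes to between 23.7% and 33.6% (28.8% in the fit with 8 members, without anti-PD-1 replicate 2). The authors' deposited table gives S100a6 a fold of 1.75 and S100a14 one of 3.87, where the group means give 3.20 and 6.98.

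The sign turned in the following cases. Under quantile normalization Cd14 was -0.029. With array weights S100a13 was 0.027, S100g -0.029 and Camp 0.024. With the replicate block S100g was -0.005, S100z -0.235 and Cd14 -0.265. By the authors' deposited table the difference of S100g was -0.15, Crnn -0.029, Emb 0.23 and Camp 0.057. With 1 array left out the ranges were -0.035 to 0.34 for S100a7l2 (9130204L05Rik), -0.30 to 0.20 for S100a13, -0.105 to 0.09 for S100g, -0.215 to 0.205 for S100z, -0.025 to 1.135 for Crnn, -0.155 to 0.245 for Cd14, -0.13 to 0.665 for Mcam, -0.52 to 0.39 for Emb and -0.077 to 0.058 for Camp.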
